A study of Mus musculus with 12 samples.

Results

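Lysosomes are the acidic compartments in which cells break down proteins, glycans and lipids delivered by endocytosis and autophagy. This account follows 31 genes of that compartment, chosen by name for their function: 8 proteases (Ctsa, Ctsb, Ctsd, Ctsh, Ctsl, Ctss, Ctsz, Tpp1), 10 enzymes that trim sugars or sulfate groups from glycans (Gaa, Gla, Glb1, Hexa, Man2b1, Neu1, Galns, Sgsh, Naglu, Gusb), 6 genes of lipid and sterol handling (Lipa, Asah1, Smpd1, Psap, Npc1, Npc2), 5 genes of the lysosomal membrane (Lamp1, Lamp2, Scarb2, Mcoln1, Cln3) and the transcription factors Tfeb and Tfe3. All 31 were among the 24982 gene symbols measured. The RNA came from B lymphocytes of the spleen of mice 6 weeks old, in 3 genotypes of 4 libraries each. WT mice were C57BL/J6. Eμ-Myc mice carry a Myc transgene driven by the immunoglobulin heavy chain enhancer, which is active in the B lineage and gives rise to B cell lymphoma. Eμ-Myc; PRPS2 KO mice carry the same transgene and lack PRPS2, an enzyme that makes phosphoribosyl pyrophosphate for nucleotide synthesis, so the transgene is common to both of the latter groups. The sources used here do not say how the PRPS2 allele was made, or whether a library holds 1 mouse or a pool. Replicates are called biological, with nothing more on their origin, so p-values measure the spread between these libraries. The study asked which expression programs Myc alters and whether loss of PRPS2 touches them.

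TFEB and TFE3 are basic helix-loop-helix factors that switch on lysosomal genes when they enter the nucleus. They are held in the cytosol by phosphorylation through mTORC1, which itself sits on the lysosome. They bind a palindromic element, called CLEAR, built around CACGTG, the E-box core that MYC with its partner MAX also binds. In B cells, lysosomal proteases cut the invariant chain and antigens for display on MHC class II, cathepsin S (Ctss) above all.

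The sequences below are the 250 bases before the annotated start of 5 of these genes (RefSeq, GRCm38.p6), read 5′ to 3′ on the strand of the gene. They are shown because they hold the CACGTG core shared by both factor families; 3 belong to genes that changed in Eμ-Myc libraries (Mcoln1, Sgsh, Glb1) and 2 to genes that did not pass the test (Lamp1, Ctsd). They were picked after the expression values were seen. Capitals mark CACGTG, or the longer TCACGTGA where that is present.
Mcoln1, chr8:3500269-3500518, plus strand: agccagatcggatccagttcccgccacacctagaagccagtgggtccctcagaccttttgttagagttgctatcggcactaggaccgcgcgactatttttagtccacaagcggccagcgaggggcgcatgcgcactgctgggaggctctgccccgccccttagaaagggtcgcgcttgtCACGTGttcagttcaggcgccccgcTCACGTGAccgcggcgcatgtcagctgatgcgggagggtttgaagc
Sgsh, chr11:119355511-119355760, minus strand: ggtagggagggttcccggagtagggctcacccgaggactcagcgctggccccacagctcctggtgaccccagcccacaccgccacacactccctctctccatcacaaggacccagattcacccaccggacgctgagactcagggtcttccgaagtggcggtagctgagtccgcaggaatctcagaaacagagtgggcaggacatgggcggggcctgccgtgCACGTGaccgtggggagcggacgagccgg
Glb1, chr9:114400828-114401077, plus strand: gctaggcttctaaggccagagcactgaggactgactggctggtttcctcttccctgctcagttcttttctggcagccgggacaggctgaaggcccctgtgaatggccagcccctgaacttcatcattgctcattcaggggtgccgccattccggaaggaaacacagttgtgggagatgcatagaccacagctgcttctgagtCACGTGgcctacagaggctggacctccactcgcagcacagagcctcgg
Lamp1, chr8:13158911-13159160, plus strand: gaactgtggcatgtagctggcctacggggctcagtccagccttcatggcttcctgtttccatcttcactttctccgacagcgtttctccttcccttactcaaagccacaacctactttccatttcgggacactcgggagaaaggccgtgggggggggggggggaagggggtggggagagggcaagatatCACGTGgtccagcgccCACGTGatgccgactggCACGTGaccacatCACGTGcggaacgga
Ctsd, chr7:142387828-142388077, minus strand: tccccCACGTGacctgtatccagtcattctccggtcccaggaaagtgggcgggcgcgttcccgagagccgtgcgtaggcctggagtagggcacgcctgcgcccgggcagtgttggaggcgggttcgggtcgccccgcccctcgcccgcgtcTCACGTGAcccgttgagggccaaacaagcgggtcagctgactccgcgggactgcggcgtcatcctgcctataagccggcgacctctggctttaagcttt
Promoter windows were in the table for 26 of the 31 genes; Ctsb, Ctsh, Galns, Asah1 and Npc1 had no entry. In windows of 300 bases, 250 before and 50 after the start, CACGTG was found for 11 of 26 genes (42.3%), against 2187 of 27025 genes in the whole table (8.09%). The longer TCACGTGA, which contains that core, was found for 5 of the 26 (19.2%) and for 1.12% of all genes. The full CLEAR palindrome of 10 bases, which contains both, was found for Cln3 alone of the 26 (3.85%) and for 0.37% of all genes. All 3 motifs are palindromes, so both strands were searched at once. Lamp1 held 4 cores in its window, and Ctsa, Cln3, Ctsd, Mcoln1 and Gla held 2 each. The core was found for 4 of the 7 changed genes with a window (Glb1, Sgsh, Mcoln1, Cln3) and for 7 of the 19 others (Ctsa, Ctsd, Ctsl, Gaa, Gla, Naglu, Lamp1). These are matches of letters, and binding was not measured. The genes were chosen as lysosomal, the class these factors act on, so their higher share is not an independent result. The whole table was not limited to genes expressed here.

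Levels are given as scaled coverage: the coverage deposited for each gene, divided by 1 factor per library that brings the bulk of genes to a common level. The deposited coverage summed to between 1277306 and 1885769 per library, the number of reads behind it is unknown, and no counting interval can be given. A gene was called changed at an adjusted p under 0.05 (limma on log2 of scaled coverage + 0.5, two-sided, adjusted over every gene tested). Prps2 averaged 126 in the WT libraries, 248 with the Eμ-Myc transgene alone and 17.2 with PRPS2 lost as well, which is 6.96% of the Eμ-Myc mean. In the same order Myc averaged 273, 1926 and 2291. Both genes follow the labels. Myc was uneven within the knockout, at 1105, 1728, 3034 and 3300 in libraries 1 to 4, against 1567 to 2315 in Eμ-Myc. The 9 B cell markers used, Cd79a, Ms4a1 and Pax5 among them, were above 0 in every library, with a summed level of 5874 to 14530. Markers of other splenic cells were also present in every library, so presence alone does not check the B cell label. The summed neutrophil markers exceeded the B cell sum in WT 1 and 4, Eμ-Myc 1 and 2 and knockout 1 and 2, and were below it in the other libraries. In WT 1 the sums were 31286 and 7657. S100a8 and S100a9 measured 5510 and 13939 there. The lists hold different genes, so ranking their sums does not rank numbers of cells. Values of the other markers stand beside the results they move with. Since RNA was measured in bulk, fewer cells of a type and less RNA per cell cannot be told apart.

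By level, Psap stood far above the rest. It encodes the precursor of the saposins, small proteins that present sphingolipids to their hydrolases, and it made up 53.9% to 59.3% of the summed coverage of the 31 genes in each library. Coverage is taken here as a level per base of transcript, which is how the term is usually meant; the sources used here do not define it. In WT libraries Psap averaged 8830 ± 1364 (SD, n = 4), followed by Ctss at 1857 ± 294. Ctsh (678 ± 162), Lamp1 (636 ± 118) and Ctsd (536 ± 135) came next, and neighbours among these 3 lie within each other's SD. The lowest were Ctsl at 15.5 ± 3.71 and Gla, the alpha-galactosidase A that is deficient in Fabry disease, at 7.47 ± 3.77.

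In Eμ-Myc libraries, 7 of the 31 genes fell against WT and 3 rose. The 7 that fell were Npc1, Sgsh, Cln3, Tfe3, Mcoln1, Ctsh and Ctss, and the 3 that rose were Gusb, Galns and Glb1. Among all 12723 genes tested, 55.1% were called, 30.4% as higher and 24.7% as lower. The 10 called genes are 32.3% of the 31. The share that fell, 22.6%, was close to that of all genes, and the share that rose, 9.68%, was smaller. Fitted log2 fold changes were negative for 24 of the 31 and for 50.4% of all genes tested, with medians of -0.28 and -0.0086. The libraries of the 2 groups did not overlap for 7 of the 31 (Glb1 and Gusb higher; Gaa, Sgsh, Npc1, Mcoln1 and Tfe3 lower), against 51.4% of all genes. An unadjusted p under 0.05 was reached by 14. Without Eμ-Myc library 3, or without library 4, the count of called genes dropped to 6, and the share of all genes called to 46.3% and 46%.

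Among the proteases, Ctss and Ctsh fell and none rose. Cathepsin S cuts the invariant chain in antigen-presenting cells. Ctss measured 2033, 2083, 1875 and 1437 in WT libraries 1 to 4 and 1284, 1446, 1101 and 902 in the Eμ-Myc libraries. The groups touch: the highest Eμ-Myc library exceeds WT library 4. The change was -0.66 on the log2 scale (SE 0.17, adjusted p = 0.00932), and the call was lost when all 12 libraries shared 1 fit (adjusted p = 0.113). Ctsh, an aminopeptidase of the cathepsin family, measured 702, 826, 734 and 449 in WT and 421, 504, 399.5 and 357 in Eμ-Myc. WT library 4 again lies inside the Eμ-Myc range. Its change was -0.66 (SE 0.19, adjusted p = 0.0149). The other 6 proteases did not pass. Ctsa, the protective protein of beta-galactosidase and neuraminidase, had a log2 fold change of -0.40 (adjusted p = 0.069), and the carboxypeptidase Ctsz one of 0.41 (adjusted p = 0.073). Ctsb, a cysteine protease of broad specificity that is plotted beside the changed genes, averaged 324 ± 62.4 in WT and 399 ± 109 in Eμ-Myc, a difference within the spread (adjusted p = 0.321).

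The glycan hydrolases moved in both directions, with 3 that rose and 1 that fell among 10. Gusb, the beta-glucuronidase, measured 168, 159, 131 and 124 in WT and 235, 258, 222 and 239 in Eμ-Myc. Every Eμ-Myc library lies above every WT library. The change was 0.72 (SE 0.12, adjusted p = 0.00077). Glb1, the lysosomal beta-galactosidase, measured 93, 109, 102 and 116 in WT and 123, 139.6, 119 and 126 in Eμ-Myc. These groups do not overlap either, but the change was small, at 0.27 (SE 0.10, adjusted p = 0.0436). Galns, a sulfatase acting on keratan sulfate, measured 76.7, 60.1, 48.2 and 53.5 in WT and 78.7, 93.9, 70.4 and 72.6 in Eμ-Myc. WT library 1 lies within the Eμ-Myc range. Galns changed by 0.41 (SE 0.16, adjusted p = 0.0472).

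Sgsh went the other way. It encodes sulfamidase, which removes N-linked sulfate from heparan sulfate and is deficient in Sanfilippo syndrome type A. It measured 20.4, 26.1, 28.1 and 26.4 in WT and 14.6, 11.9, 12.7 and 12.1 in Eμ-Myc, with no overlap. The mean fell from 25.2 ± 3.38 to 12.8 ± 1.21 (SD, n = 4), 50.8% of WT, and the log2 change was -0.95 (SE 0.14, adjusted p = 0.000414). Naglu, which acts in the same heparan sulfate pathway, averaged 27.5 ± 4.85 in WT and 24.6 ± 1.96 in Eμ-Myc (log2 -0.14, adjusted p = 0.41). Gaa, the acid alpha-glucosidase, had groups that did not overlap, with 50.3 to 61.9 in WT and 40.1 to 50 in Eμ-Myc, yet missed the threshold (log2 -0.25, adjusted p = 0.0813). The calls of Galns and Glb1 are weak: Galns missed the threshold when any library except WT 1 was left out (adjusted p 0.0576 to 0.124), and Glb1 when any except WT 4 was (0.0569 to 0.103). Both also missed it with no filter on low genes (0.0624 and 0.0616) and with scaling to total coverage (0.174 and 0.449). Scaling by the median of gene ratios lost both calls as well.

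Of the lipid and sterol genes, Npc1 fell and 5 did not pass. NPC1 is the membrane protein that moves cholesterol out of the lysosome, and NPC2 is the soluble carrier that hands it over. Npc1 measured 24.9, 22.8, 26 and 22.4 in WT and 15.2, 7.59, 14.2 and 10.5 in Eμ-Myc. The groups stand well apart, with means of 24 ± 1.73 and 11.9 ± 3.49 (SD, n = 4). The change was -1.03 (SE 0.21, adjusted p = 0.00242), and Npc1 was the single gene of the 31 both called and past a 2-fold change. Npc2 did not follow it, at 206 ± 33.4 in WT and 241 ± 40 in Eμ-Myc (log2 0.23, adjusted p = 0.214). Lipa, the acid lipase that frees the cholesterol, had a log2 change of -0.38 (adjusted p = 0.0721), Asah1, the acid ceramidase, one of -0.43 (adjusted p = 0.13), and Psap one of -0.20 (adjusted p = 0.284). Smpd1, the acid sphingomyelinase, was nearest to 0, at -0.10 (adjusted p = 0.5).

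At the lysosomal membrane Mcoln1 and Cln3 fell. Mcoln1 encodes TRPML1, the channel that releases calcium from the lysosome. It measured 29.5, 29, 27.4 and 36.1 in WT and 21.1, 19.6, 17.8 and 15.7 in Eμ-Myc, with no overlap. Its change was -0.70 (SE 0.14, adjusted p = 0.00202). Cln3, the gene of juvenile Batten disease, measured 139.8, 59.5, 62.7 and 104 in WT and 54.2, 65.5, 38.2 and 31.5 in Eμ-Myc. WT libraries 1 and 4 are far above the other 2, and Eμ-Myc library 2 lies above WT libraries 2 and 3. Cln3 changed by -0.91 (SE 0.32, adjusted p = 0.0375), and the call was lost without WT 1 (adjusted p = 0.0756), WT 4 (0.0856), Eμ-Myc 3 (0.0954) or Eμ-Myc 4 (0.0972), and with all 12 libraries in 1 fit (0.0841). The structural proteins moved less: Lamp1 had a log2 change of -0.11 (adjusted p = 0.548), Lamp2 of -0.40 (0.178), and Scarb2, the receptor that carries glucocerebrosidase to the lysosome, of -0.22 (0.14).

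Of the transcription factors, Tfe3 fell and Tfeb did not pass. Tfe3 measured 282, 181, 173 and 158 in WT and 148, 137, 108 and 87.9 in Eμ-Myc, with no overlap. Its change was -0.71 (SE 0.22, adjusted p = 0.0201). It missed the threshold without Eμ-Myc library 3 (adjusted p = 0.0541) or 4 (0.053), and with all 12 libraries in 1 fit (0.103). Tfeb measured 245, 321, 243 and 181 in WT and 187, 233, 170.1 and 176 in Eμ-Myc. WT library 4 lies within the Eμ-Myc values, and the change of -0.35 (SE 0.17) had an adjusted p of 0.114. Without WT 4 the change was -0.49 (adjusted p = 0.0236), and with scaling to total coverage it was -0.53 (0.022).

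**Figure D1:**
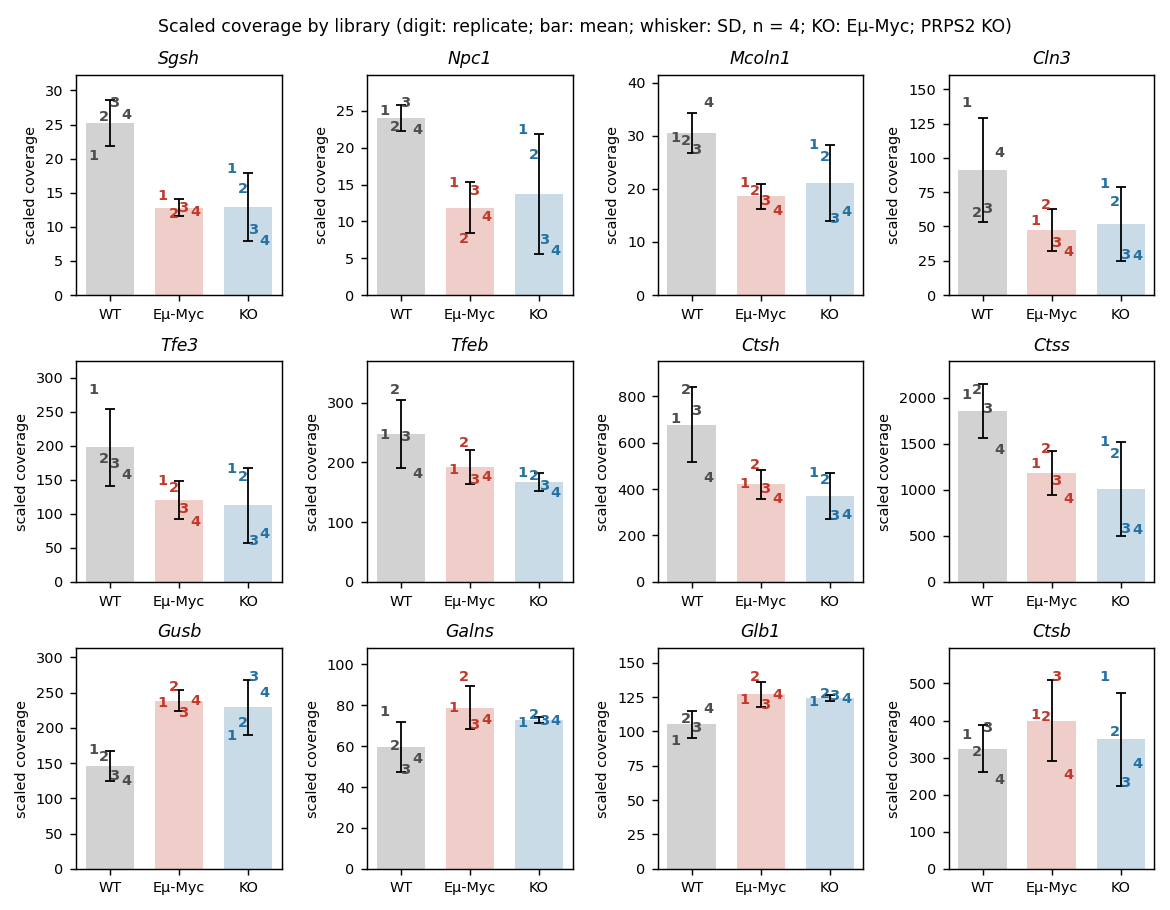
Scaled coverage (vertical axes, from 0) of 12 lysosomal genes in WT, Eμ-Myc and Eμ-Myc; PRPS2 KO libraries; each digit is 1 library with its replicate number, bars are means and whiskers SD (n = 4). Sgsh, Npc1, Mcoln1 and Tfe3 in Eμ-Myc lie below every WT library and Gusb and Glb1 lie above, while in the knockout libraries 3 and 4 lie below 1 and 2 for all but Gusb, Galns and Glb1.

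Several of these genes share exon sequence with a neighbour, and whether the coverage was computed by strand is not given in the sources used here. Sgsh shares 955 exon bases with Card14 on the opposite strand, but Card14 was nearly absent (mean scaled coverage 0.01). Npc1 shares 511 bases with Rmc1 on the opposite strand (mean 47.5), Cln3 442 with Apobr on the opposite strand (34.4), and Glb1 165 with Tmppe on its own strand (11.4). Values of Npc1, Cln3 and Glb1 may therefore include reads of the neighbour. Scaling matters for the balance of directions. Dividing by total coverage shifted the median log2 change of all genes from -0.0086 to -0.19 and that of the 31 genes from -0.28 to -0.46. With it 18 of the 31 were called, 1 higher (Gusb) and 17 lower. Of all genes tested 57.4% were called with it, and 42% of those calls were higher in place of 55.2%. Scaling by the median of gene ratios called 12 of the 31 and 55.8% of all genes. The signs of the 10 called genes were the same under all 3 scalings.

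**Figure D2:**
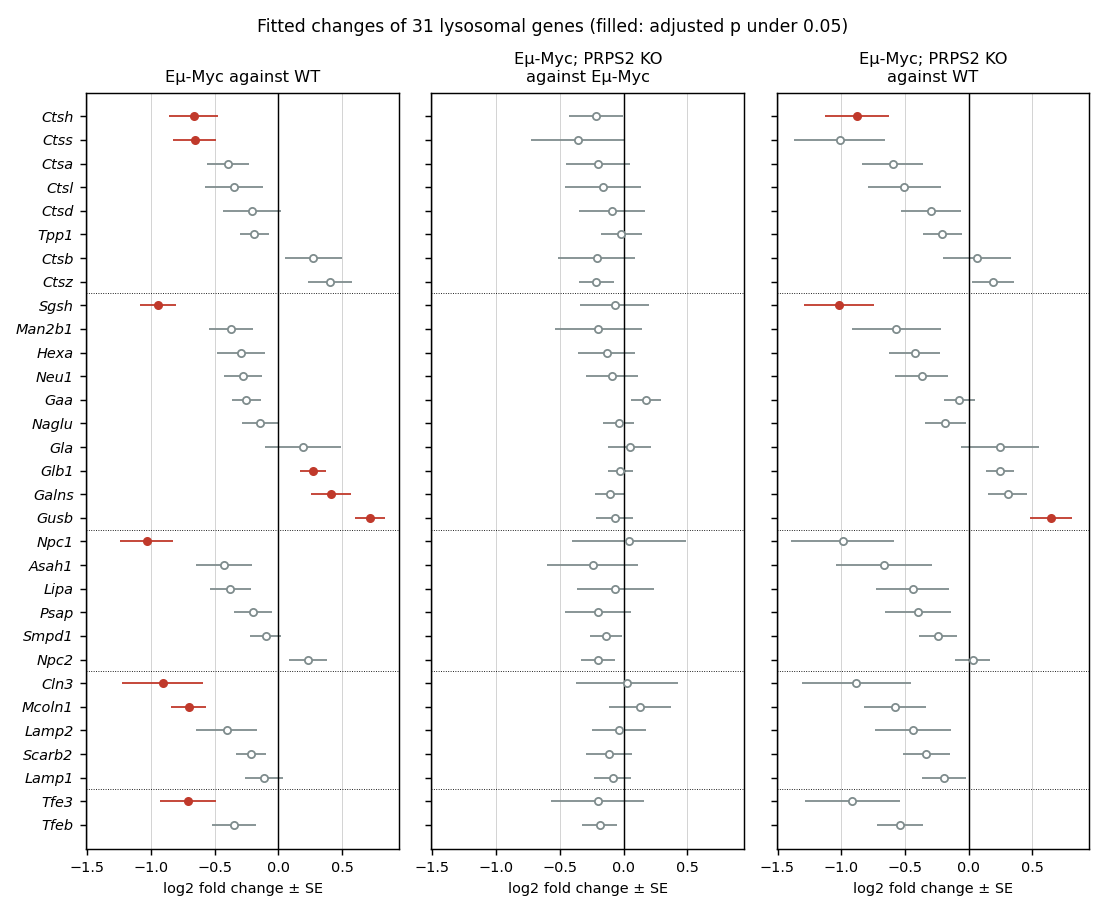
Fitted log2 fold changes (horizontal axes) with SE of the 31 genes, grouped by role and separated by dotted lines, in the 3 comparisons; filled red points passed an adjusted p of 0.05. Filled points number 10 in Eμ-Myc against WT, 0 in the knockout against Eμ-Myc and 3 in the knockout against WT.

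Loss of PRPS2 on the Eμ-Myc background gave no called gene among the 31. By limma, 0 of 31 passed at the adjusted threshold and 0 had an unadjusted p under 0.05. Among all 12575 genes tested 1 was called (0.00795%), Prps2 itself. Log2 changes were negative for 26 of the 31, with a median of -0.11, and for 56.7% of all genes. The 3 genes with the smallest p did not pass. Ctsz measured 526, 704, 531 and 497 in Eμ-Myc and 487, 511, 473 and 459 in the knockout (log2 -0.21, SE 0.14). Npc2 measured 226, 301, 226 and 214 in Eμ-Myc and 211, 212, 201 and 210.2 in the knockout (log2 -0.20, SE 0.13). Its groups do not overlap, the single such case among the 31, against 1.53% of all genes tested. Gaa, at 46.1 ± 4.3 in Eμ-Myc and 52.1 ± 5.25 in the knockout, had a log2 change of 0.18 (SE 0.12). Adjusted p was near 1 for all 3. A p that misses the threshold does not show that the genotypes are alike: the SE reached 0.45 for Npc1 and 0.40 for Cln3.

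That width comes with a split inside the knockout group. Libraries 3 and 4 were both below libraries 1 and 2 for 26 of the 31 genes (83.9%), against 41.3% of the 12575 genes tested. They were both above for 2, Gusb and Gla, and Gaa, Glb1 and Galns fell in neither class. Ctss measured 1517, 1388, 574 and 568 in knockout libraries 1 to 4. Npc1 measured 22.4, 19, 7.48 and 6.02, and Cln3 81, 68.1, 29.1 and 28.6. In each of these genes the mean of libraries 3 and 4 was under 40% of that of libraries 1 and 2: 39.3% for Ctss, 32.7% for Npc1 and 38.7% for Cln3. Other genes barely differed, with 97% for Npc2, 98.4% for Galns and 100% for Glb1, and Gusb ran the other way at 132%. All 8 proteases, all 6 lipid and sterol genes, all 5 membrane genes and both factors were lower in libraries 3 and 4, and 5 of the 10 glycan hydrolases were. For 20 of the 31 genes (64.5%), libraries 3 and 4 were also below every Eμ-Myc library, against 28.1% of all genes. Myc itself was split along the same line in the other direction, at 1105, 1728, 3034 and 3300 in knockout libraries 1 to 4. Its part in the lysosomal values was not tested. These are descriptions, since the libraries were singled out by their values.

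Tfe3 shows what the split does to a comparison. It measured 167, 155, 60.7 and 70.2 in the knockout against 148, 137, 108 and 87.9 in Eμ-Myc, so 2 knockout libraries lie above all Eμ-Myc libraries and 2 below. The fitted change was -0.20 (SE 0.36), and it was 0.046 without knockout library 3. Tfeb, at 182, 177, 161 and 149.6, was more even, with a change of -0.19 (SE 0.14). Settings added once the values had been seen left out a pair of knockout libraries at a time. With libraries 1 and 2 left out, 8 of the 31 genes were called, all lower (Asah1, Ctsa, Ctsh, Ctss, Man2b1, Psap, Sgsh, Tfe3), and 28.5% of all genes tested. With libraries 3 and 4 left out, 0 of the 31 and 4.21% of all genes were called, and the median log2 change of the 31 turned positive, from -0.11 to 0.20. Because the pairs were picked from the values, neither count measures the effect of PRPS2.

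**Figure D3:**
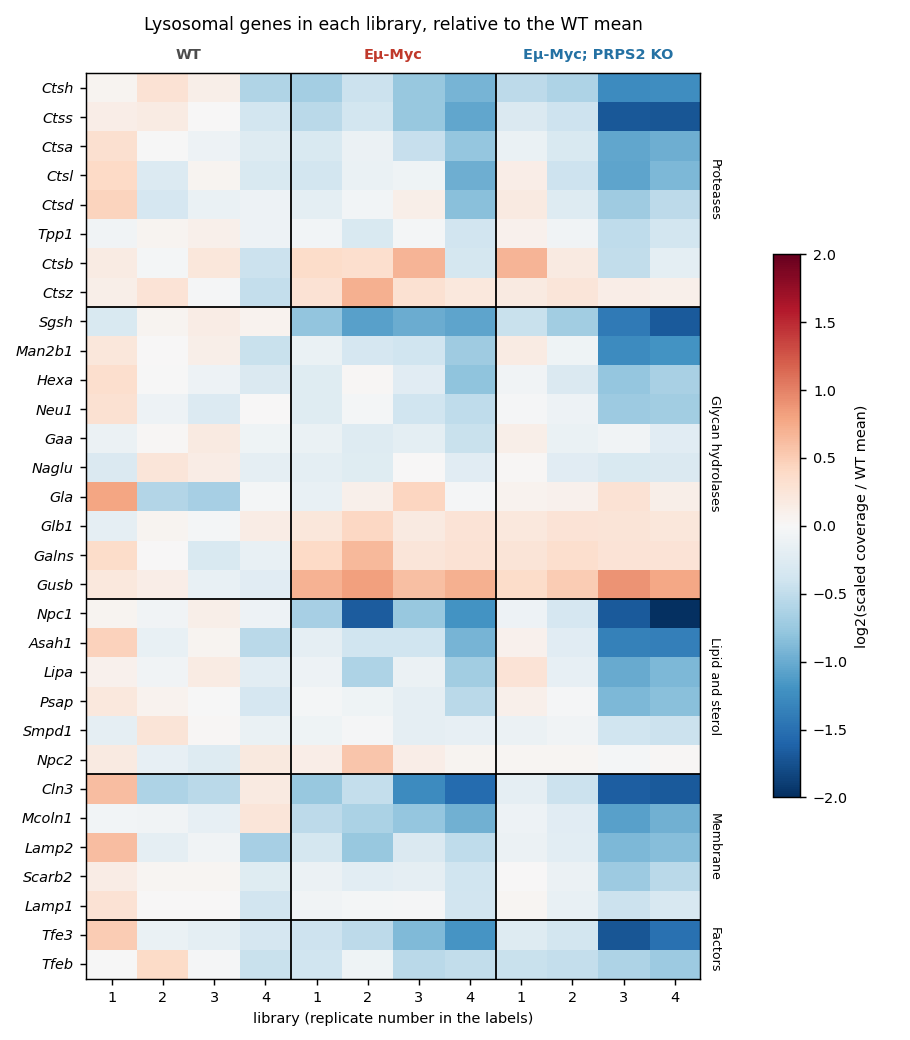
Scaled coverage of each of the 31 genes (rows, by role) in each of the 12 libraries (columns), as the log2 ratio to the WT mean, red higher and blue lower. Knockout libraries 3 and 4 are darker blue than libraries 1 and 2 across most rows, and the red cells of Eμ-Myc lie mainly at Gusb, Galns, Glb1, Ctsz and Ctsb.

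Markers of several other cell types moved with this split, and so did some markers of B cells. The 18 macrophage and monocyte markers, among them Csf1r, Adgre1 and Cd68, were all in the files and none was at 0 in any library. Their summed level was 3787 to 6984 in WT and 1875 to 5515 in Eμ-Myc, and 5785, 4574, 1198 and 1281 in knockout libraries 1 to 4. The sum of the 31 lysosomal genes was 12534 to 18207 in WT and 10685 to 14910 in Eμ-Myc, and 16199, 14660, 8740 and 9117 in the knockout. The 2 sums thus share the drop in knockout libraries 3 and 4. A few genes weigh most in them: Psap made up 53.9% to 59.3% of the lysosomal sum in each library. Lyz2, the highest macrophage marker in the knockout, measured 1983, 2032, 344 and 218 there. Taken gene by gene, 17 of the 18 macrophage markers were lower in libraries 3 and 4 than in 1 and 2, against 41.3% of all genes. Neutrophil markers (10 of 10 in the files, none at 0) summed to 6747 to 31286 in WT, to 6199 to 19849 with the transgene, and to 17758, 12742, 3153 and 1118 in knockout libraries 1 to 4. T cell markers (9 of 10 in the files, none at 0) summed to 840, 939.8, 79.7 and 80 in the knockout, and NK cell markers (10 of 10, none at 0) to 719, 535, 27.6 and 25.9. Dendritic cell markers (10 of 10, none at 0) summed to 457, 445, 159.8 and 178. Much of that was Ccr7, at 223, 264, 124 and 151, though each of the 10 was lower in libraries 3 and 4. B cell markers summed to 7188, 7416, 5874 and 6163, a smaller drop, but 6 of the 9 were lower in libraries 3 and 4 than in 1 and 2, and 7 of the 9 (77.8%) were below every Eμ-Myc library. Among them Fcer2a, the IgE receptor of mature B cells, measured 1016, 840.3, 3.68 and 2.68, and Cr2, their complement receptor, 66.4, 62.3, 0.11 and 0.33. Not every list dropped: of 9 erythroid markers 0 were lower in libraries 3 and 4 and 6 were higher, and of 10 plasma cell markers 6 were lower and 4 higher.

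The same markers also differed in the comparison of Eμ-Myc with WT. T cell markers summed to 712 to 3716 in WT and 178 to 239.8 in Eμ-Myc, and all 9 fell. NK cell markers went from 427 to 1737 down to 108 to 308, with all 10 lower, and dendritic cell markers from 694 to 750.5 down to 278 to 359.5, with 6 of 10 lower. Most of the dendritic sum was 1 gene, Ccr7, which averaged 458 in WT and 194 in Eμ-Myc. Of the macrophage markers 2 of 18 fell (Marco, Ccr2), and of the neutrophil markers 0 of 10 passed, with 0 at an unadjusted p under 0.05. Among all genes tested 24.7% were called lower. Of the 9 B cell markers 3 fell without overlap of the groups, Cd22 at -0.94 on the log2 scale (adjusted p = 0.00534), Fcer2a at -2.58 (0.000131) and Cr2 at -2.47 (0.000453), and 0 rose. Eμ-Myc library 4 was the lowest of its group for all 18 macrophage markers and for 21 of the 31 lysosomal genes (67.7%), against 23.8% of all genes. The part of these cells, B cells included, in the lysosomal results was not tested.

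**Figure D4:**
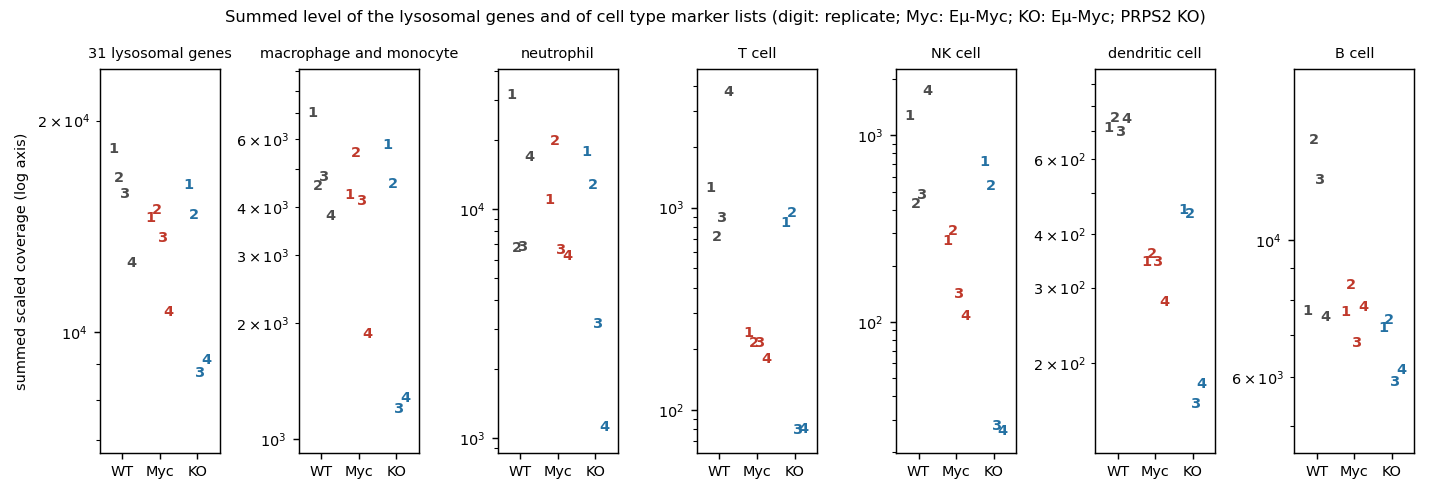
Summed scaled coverage (log axes) of the 31 lysosomal genes and of 6 marker lists in each library, drawn as its replicate number. Psap makes up 53.9% to 59.3% of the lysosomal sum. Knockout libraries 3 and 4 are the 2 lowest of the 12 libraries in all 7 panels, and Eμ-Myc library 4 is the lowest Eμ-Myc library in every panel except that of B cells.

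Against WT, the knockout libraries gave 3 called genes among the 31: Ctsh and Sgsh fell and Gusb rose. That is 9.68% of the 31, against 29.3% of the 12710 genes tested, of which 19.7% were called higher and 9.58% lower. Ctsh measured 471, 440.1, 283 and 286 in the knockout, and library 1 exceeds WT library 4; the change was -0.88 (SE 0.25, adjusted p = 0.0383). Sgsh measured 18.5, 15.5, 9.49 and 7.92, all below WT, with a change of -1.02 (SE 0.28, adjusted p = 0.0346). Gusb measured 188, 207, 272 and 249.7, all above WT, with a change of 0.65 (SE 0.16, adjusted p = 0.0295). These 3 were also called in Eμ-Myc against WT, but both comparisons use the same WT libraries. Glb1 (122, 127, 125 and 123) lay above every WT library and Npc1 (22.4, 19, 7.48 and 6.02) below, library 1 only just, without passing (adjusted p = 0.101 and 0.0872); with Sgsh and Gusb they are the 4 genes whose groups did not overlap, against 37.1% of all genes. Tfeb had a change of -0.54 (SE 0.18, adjusted p = 0.0535) and Tfe3 one of -0.91 (SE 0.37, adjusted p = 0.0845). The median change of the 31 was -0.40, and 9 had an unadjusted p under 0.05.

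The 3 calls depend on single libraries. None of the 31 was called without WT 1, WT 2, WT 3, knockout 3 or knockout 4. Without WT 4, 2 were called, Ctsh and, newly, Tfeb. All 3 stayed without knockout 2, where 4 were called, and without knockout 1, where 13 were. The share of all genes called moved with these counts, from 29.3% to between 4.78% and 7.04% in the first 5 settings. It was 10% without WT 4, 33% without knockout 2 and 53% without knockout 1. Sgsh and Gusb also missed the threshold with the replicate number as a block, which is set out with the other settings. With knockout libraries 1 and 2 left out, which was added once the values had been seen, 21 of the 31 and 70% of all genes tested were called, and with libraries 3 and 4 left out 0 of the 31 and 10.6% of all genes.

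Other lysosomal genes, from a list of 45 further hydrolases and membrane proteins, were called lower and never higher in Eμ-Myc: 17 of the 44 tested (38.6%), with a median of -0.31. Among all 12723 genes tested, 24.7% were called lower and 30.4% higher, 55.1% in all. The protease gene Ctsk was not tested for its low level. The decreases with the largest size were Laptm5, a membrane protein of immune cells that lowers B and T cell receptor levels, at -1.27 (adjusted p = 0.000306), the cathepsin Ctso at -1.22 (0.000313) and Ids, the iduronate sulfatase, at -1.02 (0.0007). Laptm5 measured 811, 676, 709 and 785 in WT, 391, 349, 314 and 212 in Eμ-Myc, and 577, 529.7, 88.7 and 98.9 in the knockout. The split of the knockout group is thus present in this gene too. Libraries 3 and 4 were below 1 and 2 in 40 of the 44 genes (90.9%), against 41.3% of all genes tested. Against WT 4 of the 44 (9.09%) fell in the knockout and 0 rose, where 9.58% of all genes were called lower and 19.7% higher. Among the 4 were Ctso at -1.69 (adjusted p = 0.0405), Acp5, a phosphatase, at -1.02 (0.0297) and Ostm1, the partner of the chloride transporter CLC-7, at -0.55 (0.0425).

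The V-ATPase, the pump that acidifies the lysosome, had 4 of 17 tested genes (Atp6v0e2 was too low to test) lower in Eμ-Myc (23.5%) and 0 higher, with a median of -0.23. The share that fell was close to that of all genes tested, 24.7%, while 30.4% of all genes rose. Atp6v0a1 fell by 1.18 on the log2 scale (adjusted p = 0.000225), Tcirg1 by 0.58 (0.0197) and Atp6v0a2 by 0.54 (0.00455); all 3 encode variants of the same membrane subunit. Genes that control TFEB at the lysosome moved both ways, with 6 of 26 higher and 5 lower (42.3% in all, median -0.0036), against 55.1% of all genes called. Those with the largest rise were Rragb, a Rag GTPase that recruits mTORC1, at 0.99 (adjusted p = 0.00173), Xpo1, the nuclear exporter of TFEB and many other proteins, at 0.83 (0.000552), and Tbc1d7, a subunit of the TSC complex, at 0.69 (0.000435). Those with the largest fall were Fnip1 at -0.61 (0.0138) and Flcn at -0.46 (0.004), which together form the folliculin complex acting on Rag GTPases, and Rraga, the Rag paralog of Rragb, at -0.59 (0.00122). Rragb measured 4.26, 5.47, 4.07 and 6.3 in WT and 9.7, 8.78, 11.2 and 12 in Eμ-Myc, and Rraga 103, 127, 113 and 103 in WT and 74, 66.1, 74.9 and 80.2 in Eμ-Myc. The 2 paralogs moved in opposite directions with no overlap of groups, and reads shared between them could not be checked. In the knockout against WT, 9.58% of all genes tested were called lower and 19.7% higher. There 2 of the 17 pump genes (11.8%) fell, Atp6v0a1 at -1.66 (adjusted p = 0.0477) and Atp6v1d at -0.40 (0.0453), and 0 rose. Of the 26 control genes 3 rose, Rragb at 1.00 (0.034), Xpo1 at 0.94 (0.0301) and Mtor, the mTORC1 kinase, at 0.53 (0.0447), and 2 fell, Rraga at -0.66 (0.0169) and Lamtor4, a subunit of the Rag anchor, at -0.62 (0.0292). In the knockout against Eμ-Myc, 0 genes of each of these 3 lists were called, with 1 of 44, 0 of 17 and 0 of 26 at an unadjusted p under 0.05 (limma). The split was not common to all lists. Knockout libraries 3 and 4 were below 1 and 2 for 10 of the 17 pump genes (58.8%) and above for 4 (23.5%). Among the 26 control genes they were below for 8 (30.8%) and above for 13 (50%), against 41.3% and 46% of all genes tested.

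**Figure D5:**
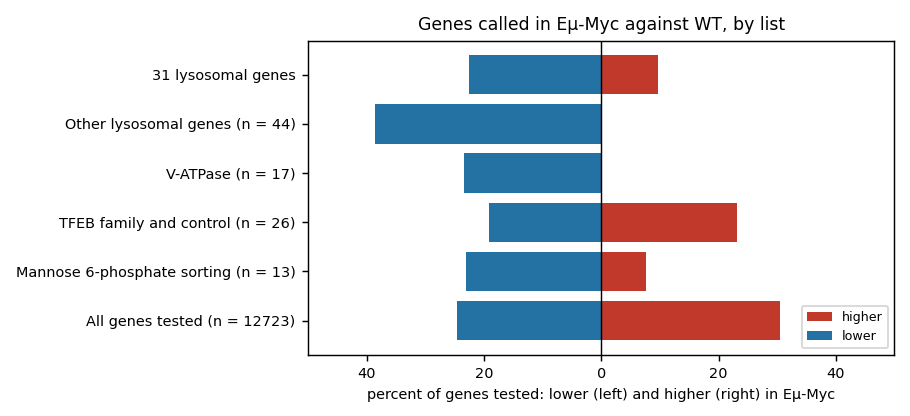
Percent of tested genes called lower (left, blue) and higher (right, red) in Eμ-Myc against WT, for the 31 lysosomal genes, 4 related lists and all genes tested. The 31 genes have 22.6% lower and 9.68% higher, all genes 24.7% and 30.4%, and the other lysosomal genes and the V-ATPase have none called higher.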

How the data were processed

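Per the labels, polyadenylated RNA of splenic B lymphocytes was made into directional libraries. The deposited values are coverage per gene, with 1 decimal, and 91.6% of values above 0 are not whole, so no count test was used. The aligner and counting step are not given in the sources used here; the submitters' processing notes name mm10, DESeq and R 4.3.3, with no role. Groups came from the genotype labels, 4 libraries each. Coverage was divided by 1 factor per library from trimmed means of log ratios (trimming 30% by ratio, 5% by level, on either side). Genes reaching a scaled coverage of 1 in 4 or more of the 8 libraries compared were fitted with limma 3.58.1 (R 4.3.3) on log2(scaled coverage + 0.5), so fold changes of low genes are understated, with a trended, robust empirical Bayes step and Benjamini-Hochberg adjustment over all genes tested. The fit was tested on simulated data. Sums and figures used Python 3.11.15.

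Members, lists and alternatives, library quality weights included, were chosen with earlier results of these data known. Full statistics were due for the called members with the 5 largest changes each way, for Tfeb and Tfe3, and, with none called, for the 3 smallest p; in other lists the 3 largest called each way were named. Ctss, Ctsh, Ctsb and other members with a printed change were added after their values were seen, as were Laptm5, Acp5, Rragb and Rraga values by library. Marker lists of erythroid cells, platelets and plasma cells are reported with the other observations, and 1 listed B cell marker is not reported here and was left out of its sum. Alternatives were other scalings, filters and pseudocounts, all 12 libraries in 1 fit, a replicate block, quality weights, a 2-fold condition and leaving out each library; leaving out knockout libraries 1 and 2, or 3 and 4, was added after seeing the data.

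Same-numbered libraries were checked for shared deviations from their group means. Correlations over genes were 0.655, 0.193, 0.252 and 0.605 between the knockout and Eμ-Myc for numbers 1 to 4, all over 0.1. Numbers 1 and 4 correlated best with their own number there, and 2 and 3 did not. The labels do not say what a number shares. The main fits therefore left the number out, and it entered only as the replicate block among the alternatives. In the other comparisons the values lay on both sides of 0.1. The lowest were -0.0972 for Eμ-Myc and WT and -0.422 for the knockout and WT.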

Additional observations from a re-analysis of the deposited data

Results flagged for a closer look

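In 6 of 93 groups of 4 libraries (31 genes in 3 genotypes), 1 library lay far from the others, by Dixon's 95% criterion on the gap relative to the whole range. Chance flags about 1 in 20 groups. Ctsz was high in Eμ-Myc library 2, at 704 scaled coverage against 531 for the next. Npc2 was high in the same library, at 301 against 226. Naglu was high in Eμ-Myc library 3, at 27.5 against 23.9. Lamp1 was low in Eμ-Myc library 4, at 486 against 606. In the knockout, Npc2 was low in library 3, at 201 against 210.2, and Galns was high in library 2, at 75.1 against 72.2; both gaps are small because these groups spread little.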

How the results depend on the processing

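In Eμ-Myc against WT, 10 of the 31 genes were called. The count was 18 with total coverage scaling (57.4% of all genes tested), 12 with scaling by the median of gene ratios (55.8%) and 18 with library quality weights (69.2%). It was 17 with the replicate block (56.5%) and 1 when a 2-fold change was also required (2842 of all 12723 genes). Leaving out single libraries gave 6 to 14 (46% to 54.7%), with 6 without Eμ-Myc 3 or Eμ-Myc 4. Ctsh, Gusb, Mcoln1, Sgsh and Npc1 stayed called under every alternative that tested them, the 2-fold condition aside; Npc1 was not tested when scaled coverage of 10 was required in every library. In the knockout against Eμ-Myc the count of 0 became 21 with quality weights (59.3% of all genes), which gave knockout libraries 1 to 4 weights of 0.0820, 0.129, 3.19 and 7.73, and 8 with knockout libraries 1 and 2 left out (28.5%); leaving out single libraries gave 0 throughout. Tfe3 changed sign in that comparison, from -0.20 to 0.046 without knockout library 3 (without single libraries it ranged from -0.44 to 0.046) and to 0.44 with knockout libraries 3 and 4 left out, where the median of the 31 genes was 0.20. In the knockout against WT the count of 3 became 9 with all 12 libraries in 1 fit (47.1%), 1 with the replicate block (14.7%) and 28 with quality weights (82.7%). It was 21 with knockout libraries 1 and 2 left out (70%), 0 with 3 and 4 left out (10.6%) and 1 with a 2-fold change required (2008 of all 12710 genes). Leaving out single libraries gave 0 to 13 (4.78% to 53%). Leaving libraries out also leaves fewer samples; otherwise the cause was not tested. The replicate block changed no call of the 31 between the knockout and Eμ-Myc, where the main fit did not use the numbers. Same-number correlations were 0.229, -0.0972, 0.264 and 0.135 for Eμ-Myc and WT and 0.397, -0.422, 0.136 and -0.0642 for the knockout and WT. In no comparison, the knockout against Eμ-Myc included, did every library correlate best with its own number. Reads per library are unknown, so what depth limits cannot be stated.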

Other observations

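Sorting of lysosomal enzymes by the mannose 6-phosphate tag had 13 listed genes, all tested. In Eμ-Myc against WT, 3 fell and 1 rose (30.8% in all, median -0.23), against 55.1% of all genes called, 24.7% lower and 30.4% higher. Sorl1, a sorting receptor of the Vps10 family, fell by 1.77 on the log2 scale (SE 0.25, adjusted p = 0.000384), from 266, 180, 215 and 133 to 86.4, 52, 45.2 and 48.3. Gnptg, a subunit of the enzyme that makes the tag, fell by 0.39 (adjusted p = 0.0197) and the adaptor Gga3 by 0.29 (0.0267), and the retromer subunit Vps29 rose by 0.32 (0.0366). In the knockout Sorl1 measured 142, 111, 16.4 and 15.7, with libraries 3 and 4 far below the others. The list as a whole was mixed. Libraries 3 and 4 were below 1 and 2 for 7 of the 13 (53.8%) and above for 5 (38.5%), against 41.3% and 46% of all genes tested. In the knockout against WT 1 of the 13 (7.69%) passed, Gnptg at -0.42 (adjusted p = 0.0493), against 29.3% of all genes. Against Eμ-Myc 0 of the 13 passed, with 0 at an unadjusted p under 0.05 (limma).

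Marker lists whose sums were not given above had these values. Erythroid markers (9 of 10 in the files) summed to 82.9 to 858 in WT, 93.7 to 530.5 in Eμ-Myc and 110.4, 95.9, 132 and 140.3 in knockout libraries 1 to 4. Platelet markers summed to 150.3 to 661 in WT, 133.6 to 282 in Eμ-Myc and 260.5, 90.8, 75.5 and 85.7 in the knockout. Plasma cell markers summed to 817 to 1223 in WT, 1384 to 1662 in Eμ-Myc and 1151, 1359, 1296 and 1285 in the knockout, where the sum hides members that moved both ways.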
